A study of Rattus norvegicus with 24 samples.

Results

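The 24 livers of the study that were put on arrays were compared here as 12 against 12, rotenone against control, with each rotenone liver set against control livers of the same day. Rotenone is a plant compound that blocks complex I, the NADH dehydrogenase of the mitochondrial respiratory chain. The rotenone groups were male RccHan Wistar rats that ate food with 400 ppm rotenone for 1, 3 or 14 days, and the control groups were males of the same strain that ate plain food (0 ppm) for the same times, with the livers of 4 animals in each of the 6 groups read on arrays, out of the 5 animals per group that the labels state. All animals were bought at 7 to 8 weeks of age and held 2 or 3 to a cage. The cage of each rat was not among the labels, so cage and diet effects within a day cannot be told apart. Because the compound was in the food, the dose of an animal depended on how much it ate, and no pair-fed group is among the labelled samples.

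Total RNA of whole liver was read on the Rat Transcriptome Array 1.0, 1 array per animal. The array gives 1 intensity for each of 68842 transcript clusters, sets of probes along one transcribed locus, and 23456 of these had a single symbol, which gave 22042 genes. Levels are given below as log2 of the intensity plus 1, and differences as rotenone minus control on that scale with the standard error after the sign ±. Such levels may be compared between livers and not between genes. Negative control probe sets had a median level of 5.05, and the scale ends near an intensity of 998430. The mean log2 intensity of the 13 hepatocyte markers measured (among them albumin and apolipoproteins) lay between 16.83 and 17.35 in rotenone livers and between 17.09 and 17.29 in control livers. That of the 10 neutrophil markers was close to the negative controls, between 4.98 and 5.34 in rotenone livers and between 4.95 and 5.28 in control livers. In whole liver, fewer cells of a type and less RNA per cell cannot be told apart.

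The liver makes most plasma proteins, which pass through the endoplasmic reticulum and Golgi, and it holds much mitochondrial mass for oxidising fatty acids and amino acids. When respiration is limited, liver cells are known to shift fuel use, protein synthesis and the recycling of organelles by autophagy and lysosomes. Many of these systems are complexes built from the products of a large number of genes.

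Over all livers, 8070 of 68842 transcript clusters (11.7%) differed between rotenone and control at an adjusted p under 0.05 by limma, 4011 of them higher and 4059 lower in rotenone livers. A single day set 4 livers against 4, with the spread estimated from all 24 arrays. Single days reached 3206 clusters on day 1 (4.66%), 2248 on day 3 (3.27%) and 3110 on day 14 (4.52%), and 551 passed on all 3 days. The median standard error of a difference was 0.10 over all livers and 0.17 on a single day. Of the 8070 clusters, 4458 also passed on at least 1 day and 3612 passed on none.

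In 3584 of these 3612 clusters the 3 daily differences had one direction, and in 3550 (5.16% of all clusters) the difference was also under 1 on the log2 scale. These 3550, called small steady clusters below, comprised 1510 rises and 2040 falls. Their median difference was 0.33 in size, a ratio of 1.26, and 5% of them lay below 0.19 and 5% above 0.60. For the 4458 clusters that passed on a day as well, the median size was 0.48. Daily evidence was present but weak, since 1674 of the 3550 had an unadjusted p under 0.05 on 1 day, 1486 on 2 days, 293 on 3 days and 97 on none. The way of choosing these clusters fixed that no day stood out and that the days ran one way, so the evenness of their daily values is a description and not a result. None of the 3550 passed the test of a difference among days, which does not show that the days were equal. The split of rises and falls moved with the scaling of the arrays: 42.5% of the small steady clusters were rises with the deposited values, 55.8% after quantile normalization and 61.3% once every array was centred on its own median, while the median difference of all clusters was -0.02, 0.00 and 0.01 under these 3 scalings.

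Named genes changed more often upward. Of the 22042 genes, 2625 rose (11.9%) and 1673 fell (7.59%) over all livers. Small steady changes covered 833 rises (3.78%) and 499 falls (2.26%), 1332 genes in all. Few of these lay in the range of the negative controls, with 91 of 1332 (6.83%) at or below their median, against 32.6% of all genes. Of the 91, 69 were falls. The median difference over all genes was 0.00.

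**Figure D1:**
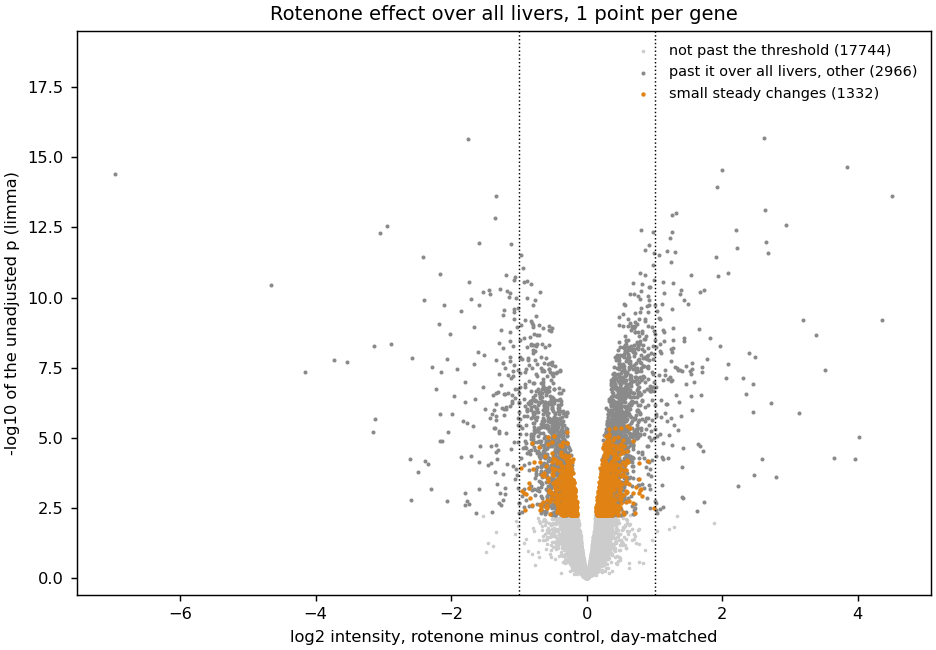
Each point is 1 of 22042 genes, plotted by its day-matched difference of log2 intensity, rotenone minus control (x axis), and by -log10 of its unadjusted limma p over all 24 livers (y axis). The 1332 small steady genes (orange) sit between the dotted lines at -1 and 1 above the light grey genes that did not pass, and the other genes past the threshold (dark grey) reach larger differences and smaller p-values.

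The 16 small steady rises with the smallest adjusted p are described first, beginning with those that left no overlap between the groups. Nsf, the ATPase that takes apart SNARE complexes after membranes fuse, had a lowest, median and highest log2 intensity of 8.94, 9.18 and 9.32 in rotenone livers, against 8.60, 8.82 and 8.90 in control livers. No rotenone liver overlapped a control liver, and the rise was 0.33 ± 0.06 (adjusted p = 2.15e-04), with daily differences of 0.31, 0.35 and 0.32. Scamp2, a carrier membrane protein of secretory and recycling vesicles, measured 8.28, 8.40 and 8.72 in rotenone livers, against 7.94, 8.12 and 8.27 in control livers. Its rise of 0.30 ± 0.05 (adjusted p = 3.48e-04) also left no overlap between the groups. Cops7a, a subunit of the COP9 signalosome that regulates cullin ubiquitin ligases, measured 8.74, 8.89 and 9.13 in rotenone livers, against 8.50, 8.62 and 8.72 in control livers. It rose by 0.29 ± 0.05 (adjusted p = 3.38e-04), again with all 12 rotenone livers above the highest control liver. Among all genes, 442 (2.01%) had 12 rotenone livers beyond all 12 control livers, and 10 of these were small steady genes.

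Pcgf1, a Polycomb group ring finger protein, measured 6.57, 6.88 and 7.19 in rotenone livers, against 6.04, 6.37 and 6.60 in control livers. It rose by 0.50 ± 0.09 (adjusted p = 2.04e-04), and 11 of 12 rotenone livers exceeded every control liver. Nfyc, a subunit of the CCAAT-binding factor NF-Y, measured 7.54, 7.76 and 8.01 in rotenone livers, against 7.30, 7.44 and 7.55 in control livers, with a rise of 0.33 ± 0.06 (adjusted p = 3.03e-04). Tbrg1, a growth-inhibitory nuclear protein, rose by 0.45 ± 0.08 (adjusted p = 3.62e-04) and Wdr19, a subunit of the intraflagellar transport machinery of cilia, by 0.33 ± 0.06 (adjusted p = 4.30e-04). Smpd4, a neutral sphingomyelinase, rose by 0.38 ± 0.07 (adjusted p = 4.36e-04). Renbp, an epimerase of N-acetylglucosamine, rose by 0.40 ± 0.07 (adjusted p = 3.68e-04) and Aplp1, an amyloid precursor-like membrane protein, by 0.32 ± 0.06 (adjusted p = 3.25e-04). C8h11orf52 and LOC102556190, for which no role is given here, rose by 0.65 ± 0.11 and 0.42 ± 0.07 (adjusted p = 2.05e-04 and 2.05e-04).

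Cox8a, a subunit of cytochrome c oxidase, measured 6.87, 7.31 and 7.59 in rotenone livers, against 6.35, 6.76 and 7.24 in control livers, so that the groups overlapped in 5 rotenone livers. It rose by 0.54 ± 0.10 (adjusted p = 4.27e-04) with daily differences of 0.50, 0.62 and 0.50. Cyp2c6v1, an abundant cytochrome of the Cyp2c family, measured 19.06, 19.16 and 19.34 in rotenone livers, against 18.61, 18.92 and 19.08 in control livers, near the top of the scale. Its rise was 0.31 ± 0.06 (adjusted p = 4.61e-04). Rpl36l2 and Rpl30l2, ribosomal protein-like genes, rose by 0.59 ± 0.10 and 0.69 ± 0.13 (adjusted p = 1.80e-04 and 4.68e-04), but their probes may share signal with the parent genes and close copies, so that the source of the rise among these copies is uncertain.

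Small steady falls with the smallest adjusted p are described next. Mk1, for which no role is given here, measured 6.51, 6.96 and 7.12 in rotenone livers, against 7.09, 7.47 and 8.05 in control livers and fell by 0.57 ± 0.10 (adjusted p = 3.48e-04). Its groups overlapped only at 1 rotenone liver. Dnajc1, a J-domain protein of the endoplasmic reticulum membrane, measured 9.05, 9.22 and 9.46 in rotenone livers, against 9.40, 9.57 and 9.83 in control livers, with a difference of -0.34 ± 0.06 (adjusted p = 4.83e-04).

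Tvp23b, a membrane protein of the Golgi, measured 10.28, 10.69 and 10.84 in rotenone livers, against 10.81, 11.03 and 11.18 in control livers and fell by 0.39 ± 0.07 (adjusted p = 5.89e-04), with 10 of 12 rotenone livers below every control liver. Rnf19a, a RING-type ubiquitin ligase, had the largest of these falls, a difference of -0.81 ± 0.15 (adjusted p = 5.12e-04), with values of 10.26, 10.58 and 11.11 in rotenone livers, against 10.64, 11.39 and 12.28 in control livers. Setdb2, of a family of histone methyltransferases, fell by 0.36 ± 0.07 (adjusted p = 6.21e-04) and Zfp260, a zinc finger protein, fell by 0.38 ± 0.08 (adjusted p = 0.00113). Cers3, a ceramide synthase of very long acyl chains, fell by 0.51 ± 0.10 (adjusted p = 0.00102). Gca, a calcium-binding protein of the penta-EF-hand family, fell by 0.48 ± 0.09 (adjusted p = 3.23e-04). Cmya5, known from the muscle sarcomere, fell by 0.70 ± 0.13 (adjusted p = 6.84e-04). Odad4, a protein of the dynein arms of cilia, fell by 0.48 ± 0.09, Nsmf fell by 0.30 ± 0.06, Accs fell by 0.29 ± 0.05 and Tmem263 fell by 0.38 ± 0.07 (adjusted p = 3.40e-04, 5.12e-04, 2.58e-04 and 9.24e-04). Pgk1-ps9, a pseudogene of Pgk1, fell by 0.58 ± 0.11 (adjusted p = 5.44e-04), beside a fall of Pgk1 itself given below, and the 2 may share signal. All of the small steady rises and falls named in these paragraphs stayed past the threshold over all livers when any single array was left out. The same held when any single day was left out and under both other scalings. They were picked for the smallest adjusted p over all livers, which favoured this outcome. Whether each gene stayed small and steady was not retested.

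**Figure D2:**
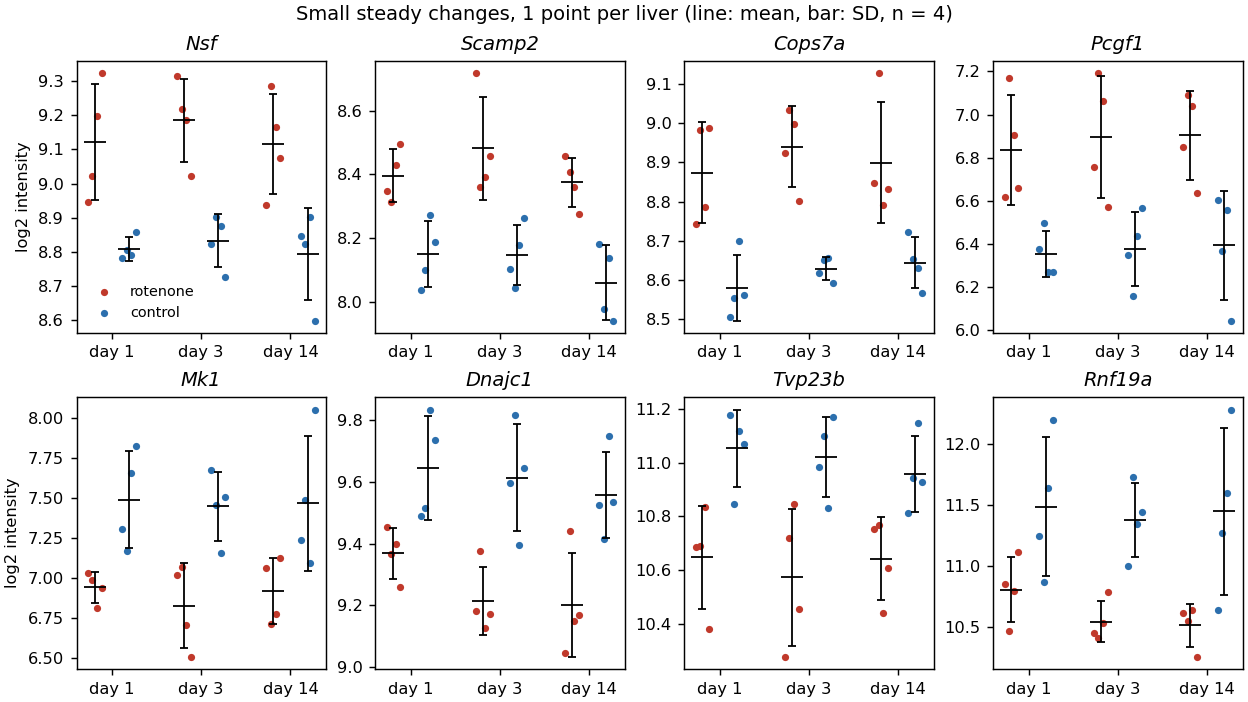
Log2 intensity (y axis) of 4 small steady rises and 4 small steady falls in each liver, by day (x axis), with the mean and SD of 4 livers. All rotenone livers (red) of Nsf, Scamp2 and Cops7a lay above the highest control liver (blue), and 11 of 12 rotenone livers of Mk1 lay below its lowest control liver.

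Gene lists of complexes and pathways are described next. Ribosomal proteins, ribosome biogenesis factors, translation factors and RNA polymerase III each gave rises and no fall over all livers with the deposited values, while the 20 cytosolic tRNA synthetases gave 6 rises and 1 fall. Of 69 cytosolic ribosomal proteins measured, 31 rose and the other 38 missed the threshold, and the median difference was 0.20, against 0.00 over all genes. On single days 6, 7 and 25 of them rose on days 1, 3 and 14, and 1 fell on day 1. The daily medians were 0.02, 0.20 and 0.37, so the average stood for a list that rose mostly on day 14. Of the 69, 10 were small steady rises, against 3.78% of all genes. Rpl13a, of the large subunit, which passed on day 14 as well, measured 11.55, 11.64 and 11.88 in rotenone livers, against 11.12, 11.35 and 11.58 in control livers and rose by 0.30 ± 0.06 (adjusted p = 7.75e-04).

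Ribosome biogenesis factors, which build ribosomes in the nucleolus, rose in 22 of 34 members and fell in none, with a median of 0.25 and daily medians of 0.44, 0.13 and 0.27. Singly, days 1, 3 and 14 gave 16, 5 and 7 rises. Bysl, needed to mature the small subunit, measured 7.45, 7.80 and 8.29 in rotenone livers, against 6.83, 7.56 and 7.87 in control livers and rose by 0.36 ± 0.10 (adjusted p = 0.0147); without day 1 its adjusted p was 0.221. Translation initiation and elongation factors rose in 17 of 37 members and fell in none (1 fell after quantile normalization), and 5 of the rises were small and steady. Among them Eif5a, the hypusine-bearing elongation factor, rose by 0.27 ± 0.05 (adjusted p = 9.16e-04) with daily differences of 0.29, 0.23 and 0.29, and 10 of 12 rotenone livers lay above every control liver.

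RNA polymerase III, which makes tRNA and other short RNAs, rose in 10 of 19 subunits and factors and fell in none, with a median of 0.26 and nearly level daily medians of 0.25, 0.22 and 0.21. Single days gave 5, 1 and 4 rises. Polr3f, a subunit of the enzyme, measured 7.52, 7.80 and 7.89 in rotenone livers, against 7.29, 7.50 and 7.81 in control livers and rose by 0.26 ± 0.06 (adjusted p = 0.0072), and without day 1 its adjusted p was 0.161. Rpph1, the RNA of ribonuclease P, which is itself made by this polymerase, measured 16.29, 16.41 and 17.04 in rotenone livers, against 15.27, 15.95 and 16.44 in control livers. It was among the 4 rises of at least 0.5 that were most even over the days, with daily differences of 0.58, 0.59 and 0.57 and 0.58 ± 0.12 over all livers (adjusted p = 0.00179).

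Genes of RNA polymerase II and Mediator moved both ways, 13 rises and 4 falls of 39, with 6 small steady rises and 2 small steady falls. Nuclear pore proteins and karyopherins gave 13 rises and 3 falls of 38. Of 33 genes of the RNA exosome and mRNA decay, 8 rose and 1 fell. Edc4, a scaffold of the decapping complex, measured 7.26, 7.42 and 7.52 in rotenone livers, against 7.02, 7.16 and 7.26 in control livers, so that all 12 rotenone livers lay above the highest control liver, and it rose by 0.26 ± 0.05 (adjusted p = 5.61e-04). Exosc5, a core subunit of the exosome, rose by 0.58 ± 0.06 (adjusted p = 1.19e-06) and passed on every day. The splicing regulators of the SR and hnRNP families ran against these lists, with 3 rises and 13 falls of 31 and a median of -0.18. Clk4, a kinase of SR proteins, measured 8.39, 8.67 and 9.22 in rotenone livers, against 8.78, 9.19 and 9.77 in control livers and fell by 0.52 ± 0.11 (adjusted p = 0.00179). Srrm2, a large SR-related matrix protein, rose by 0.50 ± 0.07 (adjusted p = 1.18e-05), and Sf3b6 of the spliceosome core by 0.50 ± 0.11 (adjusted p = 0.0028), with daily differences of 0.51, 0.50 and 0.51.

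**Figure D3:**
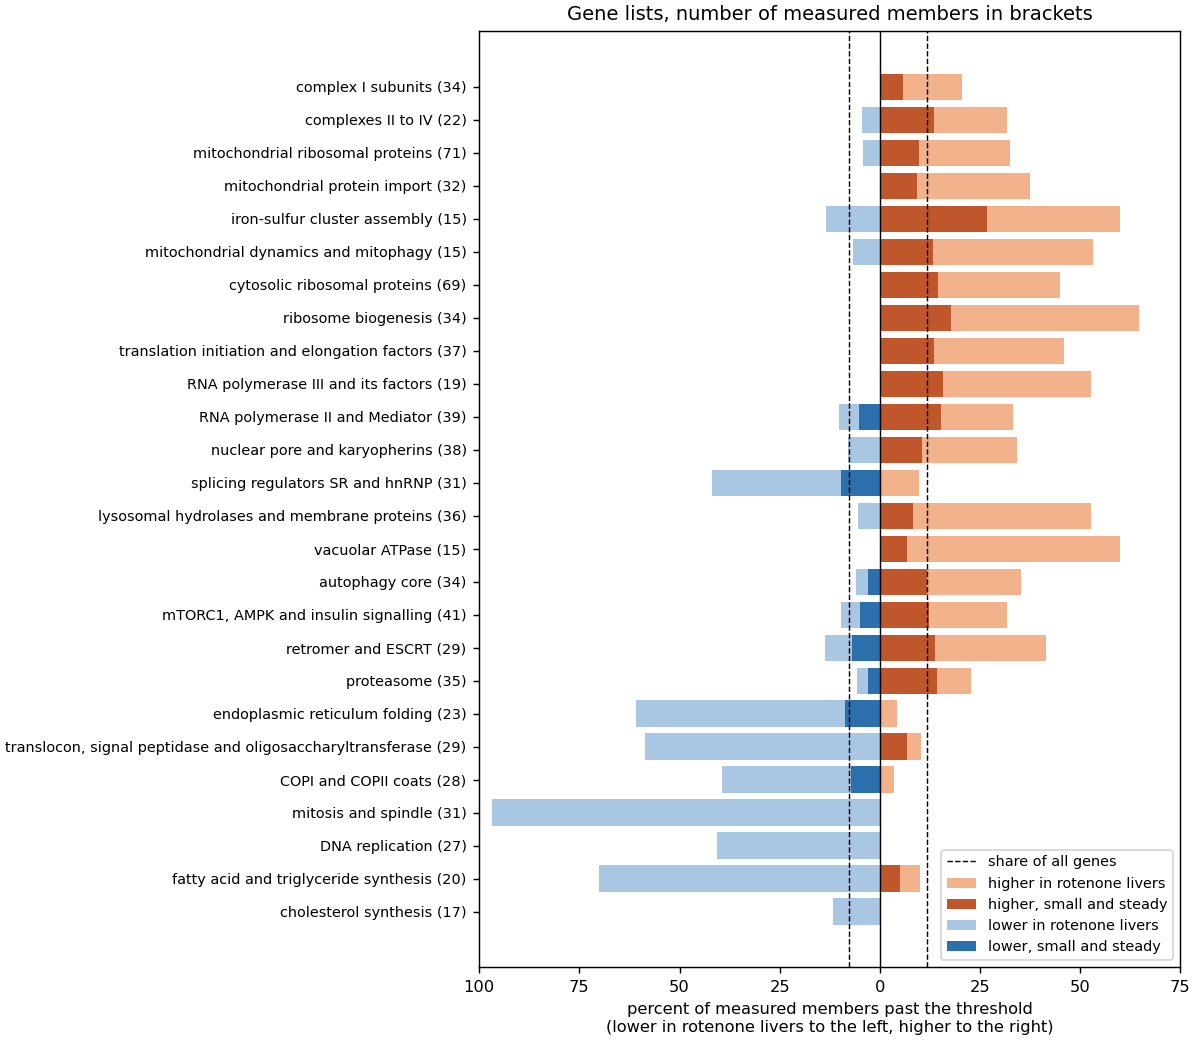
Share of the measured members of 26 gene lists that passed the threshold over all livers, with falls to the left and rises to the right (percent, x axis) and small steady changes in the darker shade. Dashed lines mark the shares of all genes, 11.9% for rises and 7.59% for falls.

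Several mitochondrial lists outside the respiratory chain gave more rises than falls, but coenzyme Q synthesis gave 1 rise and 3 falls of 13, and mitochondrial chaperones and proteases 2 rises and 3 falls of 14. Protein import into mitochondria rose in 12 of 32 members and fell in none, with daily medians of 0.10, 0.09 and 0.26. Pam16, a subunit of the import motor, measured 6.68, 6.94 and 7.22 in rotenone livers, against 6.35, 6.60 and 6.76 in control livers and rose by 0.37 ± 0.07 (adjusted p = 6.31e-04). Iron-sulfur cluster assembly, which supplies the clusters of complex I and other enzymes, rose in 9 of 15 members and fell in 2, with 4 small steady rises and a median of 0.21. One of the falls was Nfs1, the cysteine desulfurase at the head of this pathway, with 12.85, 13.24 and 13.43 in rotenone livers, against 13.39, 13.50 and 13.70 in control livers and a difference of -0.35 ± 0.07 (adjusted p = 7.10e-04). Mitochondrial ribosomal proteins rose in 23 of 71 and fell in 3, and genes of mitochondrial dynamics and mitophagy rose in 8 of 15 and fell in 1. Fkbp8, a mitophagy receptor of the outer membrane, was that fall, with a difference of -0.30 ± 0.05 (adjusted p = 5.26e-04).

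The average described the respiratory chain less well. Of 34 complex I subunits 7 rose and none fell over all livers (6 rose and 2 fell after quantile normalization), but the daily medians were -0.14, 0.10 and 0.30. On day 1 alone 3 rose and 5 fell, and on day 14 alone 7 rose. ATP synthase behaved in the same manner, with 4 rises and no fall of 13 over all livers (4 and 2 after quantile normalization), 4 falls on day 1 and 2 rises on day 14. Small steady rises were 2 of the 34 complex I subunits and 1 of the 13 ATP synthase subunits, against 3.78% of all genes. Counts this small do not set these lists apart from other genes. Ecsit, a complex I assembly factor, measured 9.31, 9.59 and 9.91 in rotenone livers, against 9.14, 9.33 and 9.48 in control livers, a rise of 0.29 ± 0.06 (adjusted p = 0.00333, and 0.0843 without day 3). Timmdc1, another assembly factor, fell by 0.37 ± 0.06 (adjusted p = 1.65e-04). Atp5f1d, the delta subunit of ATP synthase, passed on days 3 and 14 as well, measured 6.56, 6.84 and 7.08 in rotenone livers, against 5.83, 6.24 and 6.65 in control livers and rose by 0.54 ± 0.08 (adjusted p = 3.56e-05).

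The lists of lysosomes, the vacuolar ATPase and core autophagy also gave more rises than falls. Of 36 lysosomal hydrolases and membrane proteins 19 rose and 2 fell, with daily medians of 0.33, 0.18 and 0.15, and of 15 subunits of the vacuolar ATPase, the proton pump of lysosomes, 9 rose and none fell. Atp6ap1, an accessory subunit of the pump, measured 13.28, 13.51 and 13.77 in rotenone livers, against 12.57, 12.93 and 13.24 in control livers and rose by 0.63 ± 0.08 (adjusted p = 4.53e-06), with no overlap of the groups. Core autophagy genes gave 12 rises and 2 falls of 34. Map1lc3a, one of the LC3 proteins of the autophagosome membrane, measured 5.88, 6.03 and 6.28 in rotenone livers, against 5.56, 5.81 and 5.99 in control livers and rose by 0.27 ± 0.06 (adjusted p = 0.00176). Atg4a, a protease that processes LC3 family proteins, fell by 0.55 ± 0.06 (adjusted p = 4.00e-07), with values of 8.94, 9.19 and 9.42 in rotenone livers, against 9.46, 9.74 and 9.98 in control livers and no overlap.

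In the list of mTORC1, AMPK and insulin signalling, 13 genes rose and 4 fell of 41, and 7 passed over all livers on no single day. Mlst8, a subunit shared by both mTOR complexes, measured 7.02, 7.32 and 7.56 in rotenone livers, against 6.73, 6.97 and 7.11 in control livers, a rise of 0.35 ± 0.06 (adjusted p = 5.43e-04) seen on all days (0.39, 0.39 and 0.26). Among falls of at least 0.5, the one most even over the days was Pik3r1, the regulatory subunit of PI3 kinase, with 11.36, 12.48 and 12.97 in rotenone livers, against 12.88, 13.46 and 14.27 in control livers. Its daily differences were -1.09, -1.11 and -1.12, and the difference over all livers was -1.10 ± 0.16 (adjusted p = 3.62e-05). Csk, a kinase that restrains Src family kinases, was among the 4 most even rises of that size, with 8.86, 9.11 and 9.21 in rotenone livers, against 8.33, 8.52 and 8.75 in control livers, daily differences of 0.58, 0.56 and 0.58 and a rise of 0.57 ± 0.05 (adjusted p = 1.05e-07). The most even was Cpne8, a calcium-dependent phospholipid-binding protein, which rose by 0.89 ± 0.11 with daily differences of 0.90, 0.88 and 0.89 (adjusted p = 2.87e-06).

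Retromer and ESCRT genes, which sort proteins on endosomes, gave 12 rises and 4 falls of 29. The proteasome gave 8 rises and 2 falls of 35, of which 5 rises and 1 fall were small and steady. Psmd3, a subunit of its regulatory particle, measured 9.72, 9.87 and 10.24 in rotenone livers, against 9.21, 9.53 and 9.95 in control livers and rose by 0.34 ± 0.07 (adjusted p = 0.0022). Psme1, of the interferon-inducible proteasome activator, rose by 0.40 ± 0.09 (adjusted p = 0.0028) while RT1-A1, a rat class I molecule of antigen presentation, fell by 0.62 ± 0.12 (adjusted p = 0.00123). RT1-A1 belongs to a family of close copies, so its value may include theirs. The interferon and antigen presentation list as a whole gave 1 rise and 7 falls of 31.

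Lists of the early secretory pathway gave mostly falls. Of 23 genes of folding in the endoplasmic reticulum 14 fell and 1 rose (11 and 1 after quantile normalization), with a median of -0.44 and daily medians of -0.56, -0.41 and -0.46. Creld2, a secreted disulfide isomerase-like protein of that compartment, measured 8.05, 8.78 and 9.31 in rotenone livers, against 8.65, 9.53 and 10.04 in control livers and fell by 0.69 ± 0.14 (adjusted p = 0.00186). Ero1b, an oxidase that feeds disulfide bonds to protein disulfide isomerase, measured 10.52, 10.97 and 11.26 in rotenone livers, against 10.92, 11.45 and 11.91 in control livers. Its difference was -0.50 ± 0.11 (adjusted p = 0.00331), and these 2 were the small steady falls of the list.

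Of 29 genes of the translocon, signal peptidase and oligosaccharyltransferase, through which new secretory proteins enter the endoplasmic reticulum, 17 fell and 3 rose. The list was uneven over time, with 18, 5 and 1 falls on days 1, 3 and 14 taken alone and daily medians of -0.50, -0.26 and -0.11. Srp68, a protein of the signal recognition particle, went the other way, with 11.94, 12.25 and 12.60 in rotenone livers, against 11.51, 11.83 and 12.21 in control livers and a rise of 0.43 ± 0.08 (adjusted p = 7.89e-04). Tusc3, an oxidoreductase of the oligosaccharyltransferase, fell by 0.50 ± 0.07 (adjusted p = 1.17e-05). The coats of the vesicles between endoplasmic reticulum and Golgi gave 11 falls and 1 rise of 28. Tmed9, a cargo receptor of these vesicles, measured 9.82, 10.26 and 10.57 in rotenone livers, against 10.34, 10.73 and 11.01 in control livers and fell by 0.44 ± 0.09 (adjusted p = 0.00188). Tmed3 of the same family was among the 4 most even falls of at least 0.5, with -0.82 ± 0.13 (adjusted p = 1.07e-04) and daily differences of -0.84, -0.79 and -0.84. Sec31a, an outer subunit of the COPII coat, was the rise, 0.32 ± 0.06 (adjusted p = 6.59e-04).

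Promoter sequences of these genes were read from RefSeq (rat assembly GRCr8, 250 bases before to 50 after each annotated gene start) for 17175 of the 22042 genes. The arrangement CCAAT, 9 bases, CCACG, the endoplasmic reticulum stress element, was searched on both strands. It was present in 8 of 19 promoters of the folding list (42.1%), against 18 of all 17175 (0.105%). The promoter of Creld2 (chr7:121789134-121789433, plus strand) is shown because its gene fell in small steps on each day and holds this arrangement, in capitals, in the reverse orientation.
Creld2: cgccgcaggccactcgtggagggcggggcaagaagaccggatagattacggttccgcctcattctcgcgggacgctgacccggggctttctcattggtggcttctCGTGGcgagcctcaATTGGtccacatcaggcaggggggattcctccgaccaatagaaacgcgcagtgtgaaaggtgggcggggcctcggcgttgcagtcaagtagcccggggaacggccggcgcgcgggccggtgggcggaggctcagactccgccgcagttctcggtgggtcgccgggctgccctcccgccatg

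Another short sequence was counted in the small steady rises. CCGGAAG, the core bound by ETS family factors, was present on either strand in 173 of 670 promoters of small steady rises (25.8%), 39 of 384 of small steady falls (10.2%) and 2049 of all 17175 (11.9%). It was present in 18.4% of the 8794 promoters of genes at or above the median level. Among these the shares were 27.2% of 613 rises, 10.6% of 273 falls, and 18.3% of 5700 genes that did not pass. GGGCGG, the core of the GC box, gave shares closer together in the same genes, 62.2% of rises, 64.8% of falls and 59.2% of genes that did not pass. CCGGAAG was in 48.4% of 31 promoters of ribosome biogenesis and 32.2% of 59 of cytosolic ribosomal proteins, lists with rises and no fall. Lists with more falls than rises had it in 38.5% of 26 (translocon), 36.0% of 25 (coats) and 10.5% of 19 promoters (endoplasmic reticulum folding). A link of this motif to direction was not tested. The promoters of Pcgf1 (chr4:117141811-117142110, plus strand) and Cox8a (chr1:213833574-213833873, minus strand) are shown as small steady rises with the motif in capitals, once just past the start in Pcgf1, and as 2 copies in reverse orientation before the start in Cox8a.
Pcgf1: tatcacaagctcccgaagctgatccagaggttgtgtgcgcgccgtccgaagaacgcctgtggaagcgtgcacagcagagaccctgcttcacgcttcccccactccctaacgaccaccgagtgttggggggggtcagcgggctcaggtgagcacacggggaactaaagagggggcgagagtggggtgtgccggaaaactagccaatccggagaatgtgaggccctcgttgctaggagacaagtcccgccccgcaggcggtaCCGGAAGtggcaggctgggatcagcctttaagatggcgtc
Cox8a: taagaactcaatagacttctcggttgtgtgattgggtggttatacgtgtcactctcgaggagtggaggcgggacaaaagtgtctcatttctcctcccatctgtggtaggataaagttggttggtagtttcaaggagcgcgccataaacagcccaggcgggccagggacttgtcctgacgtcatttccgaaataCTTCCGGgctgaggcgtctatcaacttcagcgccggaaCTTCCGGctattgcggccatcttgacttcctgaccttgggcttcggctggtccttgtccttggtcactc

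CACGTG, the E-box read by MYC and TFEB family factors, was present in 12 of 31 promoters of ribosome biogenesis genes (38.7%) and 8 of 29 of lysosomal genes (27.6%), and in 1322 of all 17175 (7.70%). Among other lists with more rises than falls, it was in 24.2% of 33 promoters of translation factors and 27.8% of 18 of cytosolic tRNA synthetases. The cytosolic ribosomal proteins, with 31 rises and no fall, had it in 5 of 59 (8.47%). Among lists with more falls, the circadian clock, with 2 rises and 8 falls, had it in 4 of 16 promoters. The translocon list had it in 7.69% of 26 and the coats in 8.00% of 25. A link of this motif to direction was not tested. Small steady rises held it in 10.7% of 670 promoters and small steady falls in 6.25% of 384. Among genes at or above the median level the shares were 11.3% of 613 rises, 6.59% of 273 falls and 9.51% of all 8794. A motif in a window of this length is a description of the letters there, and binding was not measured. The promoter of Bysl (chr9:20880091-20880390, plus strand) is shown with its CACGTG, past the start, in capitals.
Bysl: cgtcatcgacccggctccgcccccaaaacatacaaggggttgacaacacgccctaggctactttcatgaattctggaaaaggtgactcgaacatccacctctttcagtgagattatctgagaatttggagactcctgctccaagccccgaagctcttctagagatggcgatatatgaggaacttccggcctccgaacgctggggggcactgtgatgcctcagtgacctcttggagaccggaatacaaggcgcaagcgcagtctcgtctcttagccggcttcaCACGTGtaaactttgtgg

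Metabolic lists mostly changed by larger steps that single days also reached. Fatty acid and triglyceride synthesis gave 14 falls and 2 rises of 20, and its 1 small steady change was a rise, Agpat2, an acyltransferase on the way to triglycerides, of 0.36 ± 0.09 (adjusted p = 0.00684, and 0.126 without day 14). The largest fall among all genes without overlap was that of Scd, the stearoyl-CoA desaturase, with 8.18, 9.99 and 13.49 in rotenone livers, against 16.40, 17.10 and 17.75 in control livers and -6.95 ± 0.40 (adjusted p = 3.28e-11). Its paralog Scd4 was also among the 4 most even falls of at least 0.5, with daily differences of -1.09, -1.15 and -1.12 and -1.12 ± 0.08 over all livers (adjusted p = 2.45e-09). Scd4 shares sequence with its paralogs, and its rotenone livers lay between 4.34 and 5.06, around the median negative control. The largest rise among genes without overlap was that of Cyp8b1, the sterol hydroxylase that sets cholic acid production, with 13.16, 15.60 and 16.88 in rotenone livers, against 10.06, 10.82 and 11.98 in control livers and 4.50 ± 0.28 (adjusted p = 1.15e-10). Pla2g12a, a secreted phospholipase, rose by 3.84 ± 0.21 (adjusted p = 2.67e-11), with 9.05, 10.68 and 11.53 in rotenone livers, against 5.94, 6.64 and 8.00 in control livers.

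Single small steady changes were also present in metabolic lists. In glycogen metabolism 3 of 11 measured genes were small and steady, 1 higher and 2 lower, against 3.78% and 2.26% of all genes. Counts this small do not set the list apart. In this list Pgm1, which interconverts glucose phosphates, measured 12.57, 12.89 and 13.13 in rotenone livers, against 13.03, 13.19 and 13.52 in control livers. It fell by 0.36 ± 0.07 (adjusted p = 0.00124). Gstk1, a glutathione transferase of mitochondria and peroxisomes, measured 15.37, 16.25 and 16.62 in rotenone livers, against 14.18, 15.30 and 16.24 in control livers and rose by 0.91 ± 0.19 (adjusted p = 0.00174, and 0.0609 without day 3). Coq10b, a binding protein of coenzyme Q, measured 7.67, 8.43 and 8.88 in rotenone livers, against 8.42, 8.96 and 9.78 in control livers and fell by 0.63 ± 0.15 (adjusted p = 0.00446, and 0.0602 without day 3). Trib3, a pseudokinase induced by ATF4, measured 6.82, 7.24 and 7.65 in rotenone livers, against 6.41, 6.62 and 7.16 in control livers and rose by 0.55 ± 0.10 (adjusted p = 6.45e-04), as one of 20 measured genes of the ATF4 response, which gave 3 rises and 1 fall with a median of 0.10. Slc39a14, a carrier of iron and zinc, measured 12.98, 13.32 and 13.73 in rotenone livers, against 12.67, 12.97 and 13.15 in control livers and rose by 0.35 ± 0.07 (adjusted p = 0.00181), beside Slc40a1, the iron exporter ferroportin, which rose by 0.74 ± 0.08 (adjusted p = 3.58e-07) and passed on every day.

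Lists of cell division gave falls and no rise, and held no small steady change. Of 31 mitosis and spindle genes 30 fell, with daily medians of -0.66, -1.34 and -0.38, and single days reached 22, 30 and 5 of them. Of 27 DNA replication genes 11 fell. Nuf2, a kinetochore protein, measured 4.91, 5.20 and 5.78 in rotenone livers, against 5.14, 6.43 and 7.03 in control livers and fell by 0.98 ± 0.12 (adjusted p = 2.55e-06), with 4 of 12 rotenone livers below every control liver.

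The genes of a few microRNAs were looked at after the values were seen. Of 339 clusters named for a microRNA on the chromosome where RefSeq places it, 14 passed over all livers, 11 lower and 3 higher, against 11.7% of all clusters, and 10 were small and steady, against 5.16% of all clusters. Of these 339 clusters, 226 lay at or below the median negative control, as did 6 of the 14 that passed. The columns used lose most short RNA, so the clusters may read longer transcripts of the locus, and mature microRNA was not measured. The gene of miR-122, the most abundant microRNA of hepatocytes, measured 6.95, 7.49 and 8.21 in rotenone livers, against 7.33, 8.38 and 10.73 in control livers. The difference was -0.96 ± 0.25 (adjusted p = 0.0117) with daily differences of -1.39, -1.12 and -0.36, the groups overlapped widely, and without day 1 and without day 3 the adjusted p was 0.103 and 0.128. The loci of miR-17 and miR-93 fell, with differences of -0.25 ± 0.08 and -0.37 ± 0.11 (adjusted p = 0.0404 and 0.0297) at mean levels of 4.58 and 4.69, below the median negative control. These calls were lost in 21 alternatives for Mir17 and in 7 for Mir93, and without day 1 the p-values were 0.162 and 0.225. The mature sequences from RefSeq (GRCr8, chr18:61028831-61028852 plus strand, chr15:98587861-98587883 plus strand and chr12:22156894-22156916 minus strand in the order below) are shown with the seed, bases 2 to 8, in capitals, because miR-17-5p and miR-93-5p share it and miR-122-5p does not.
miR-122-5p: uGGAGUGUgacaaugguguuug
miR-17-5p: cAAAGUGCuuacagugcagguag
miR-93-5p: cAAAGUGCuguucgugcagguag

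Genes often used as references in expression assays were not all level. Of 15 measured, 3 rose and 2 fell over all livers, against 11.9% and 7.59% of all genes. Counts this small do not set the reference genes apart from other genes. Pgk1, a glycolytic kinase, measured 11.90, 12.36 and 12.69 in rotenone livers, against 12.95, 13.19 and 13.36 in control livers, and its difference of -0.82 ± 0.08 (adjusted p = 2.94e-07) left no overlap. Rpl13a rose as given above. Rplp0, a stalk protein of the ribosome, measured 13.62, 13.80 and 14.15 in rotenone livers, against 13.27, 13.56 and 13.98 in control livers and rose by 0.27 ± 0.08 (adjusted p = 0.0198), a small steady change that passed on no single day and that had an adjusted p of 0.204 without day 3 and 0.0802 without day 14. Eef1a1, the elongation factor that brings aminoacyl-tRNA to the ribosome, rose by 0.20 ± 0.05 (adjusted p = 0.0093) near the top of the scale, with 0.0646 and 0.191 without days 3 and 14. Ppib, a cyclophilin of the endoplasmic reticulum, fell with a difference of -0.27 ± 0.08 (adjusted p = 0.0425), a call that was lost in 21 of the alternatives, with an adjusted p of 0.0942 after array-median centring.

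The other references did not pass over all livers. Gusb, a lysosomal glucuronidase, gave -0.01 ± 0.07, Ywhaz, a 14-3-3 protein, -0.03 ± 0.04, and Gapdh, a glycolytic dehydrogenase, 0.09 ± 0.06 (adjusted p = 0.968, 0.74 and 0.469). Sdha of complex II gave 0.12 ± 0.05, B2m of class I molecules -0.13 ± 0.06 and Ppia, a cytosolic cyclophilin, -0.15 ± 0.08 (adjusted p = 0.135, 0.232 and 0.268). Actb, Hprt1 and Tbp gave 0.22 ± 0.08, 0.26 ± 0.10 and 0.16 ± 0.06 (adjusted p = 0.0866, 0.0832 and 0.0896). On day 14 alone B2m fell, with a difference of -0.44 (adjusted p = 0.00246), and Hprt1 rose by 0.57 (adjusted p = 0.0132). Tfrc, the transferrin receptor, had an average of -0.05 ± 0.27 (adjusted p = 0.952) over daily differences of -0.74, -0.11 and 0.71, with opposite signs on days 1 and 14, neither of which passed. Of these genes Sdha and Ppia passed in 1 alternative each, Tbp in 3, and Actb and Hprt1 in 5 each. A p that misses the threshold does not show that these genes were unaffected.

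**Figure D4:**
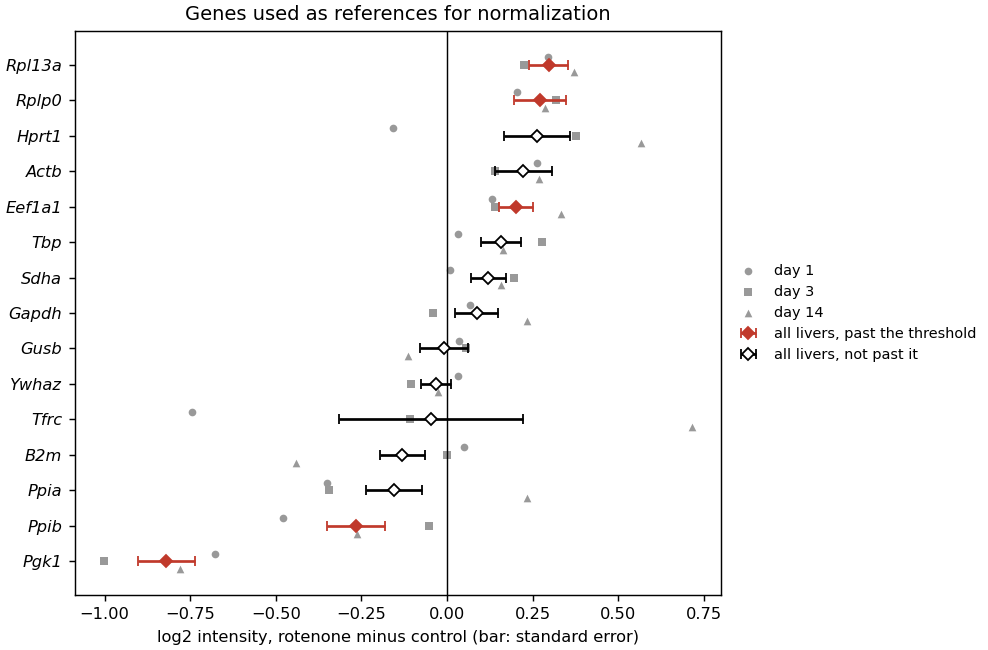
Difference of log2 intensity, rotenone minus control (x axis), for 15 reference genes over all livers, with the standard error (diamonds, red where the adjusted p passed) and on each day (grey symbols). Pgk1 lay at -0.82 and Rpl13a at 0.30, while Gusb lay at -0.01 and Ywhaz at -0.03.

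The reverse case, a change on a day that the average missed, covered 1681 clusters. The effect differed among the days in 412 clusters (0.598%) by the F test, of which 159 passed over all livers and none was a small steady cluster. The count was 220 without rotenone day 14 replicate 4 and 844 without rotenone day 14 replicate 1. Cholesterol synthesis was the clearest of the lists. Of 17 members none rose and 2 fell over all livers, but 4 fell on day 1 and 10 rose on day 14, with daily medians of -0.43, -0.54 and 1.16. Pmvk, a kinase of the mevalonate pathway, measured 7.01, 7.87 and 8.84 in rotenone livers, against 7.99, 8.58 and 8.91 in control livers. Its average difference of -0.67 ± 0.17 (adjusted p = 0.00908) stood for daily differences of -1.35, -0.93 and 0.27, and without day 1 and without day 3 the adjusted p was 0.368 and 0.198. The day difference itself had an adjusted p of 0.00434.

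Markers of liver cell types were counted in the same way, beside shares of 11.9% rises and 7.59% falls over all genes. A count of 1 or 2 in lists this small does not set a list apart from other genes. Of 14 stellate cell and fibroblast markers 5 fell and 2 rose (3 fell and 2 rose after centring), and of 10 erythroid markers 5 fell and none rose. The mean log2 intensity over the list lay between 8.16 and 9.38 in rotenone livers and between 8.75 and 9.22 in control livers for the stellate list, and between 6.26 and 9.09 in rotenone livers and between 8.09 and 8.74 in control livers for the erythroid list. The stellate list gave no fall and 1 rise on day 1, 8 falls on day 3 and 6 on day 14, with daily medians of 0.23, -0.79 and -0.38. The erythroid list gave no fall on day 1, 4 falls on day 3 and 5 on day 14, with daily medians of -0.12, -0.38 and -0.68. Pdgfrb, a receptor of stellate cells, measured 7.48, 8.38 and 9.18 in rotenone livers, against 8.55, 9.54 and 9.96 in control livers and fell by 1.07 ± 0.13 (adjusted p = 4.00e-06). Of 9 cholangiocyte markers 1 rose and 2 fell, but 2 rose and none fell after centring. Of 13 sinusoidal endothelial markers 3 rose and none fell (1 fell after quantile normalization), 1 of 14 macrophage markers fell, and none of the 12 T and NK cell, 6 B cell and 10 neutrophil markers passed with the deposited values. The endothelial and macrophage averages covered unlike days. On day 1, 8 endothelial markers rose, and the daily medians were 0.52, -0.15 and -0.01. Macrophage markers gave 3 rises on day 1 and 4 falls on day 14, with daily medians of 0.52, 0.19 and -0.59. Of 13 hepatocyte markers 1 rose and none fell over all livers (1 rose and 1 fell after quantile normalization). On single days 1 rose on day 1 and 2 fell on day 14. The part of these cell types in the gene lists above was not tested.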

How the data were processed

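Liver RNA of 24 rats was read on Rat Transcriptome Array 1.0 chips, 1 per animal, in 6 groups of 4. The deposited intensity values, on a linear scale, were made by the authors with RMA, which per the methods followed corrections for GC content and signal space. The table holds 0 columns of other samples. Control probe sets (1738) were set aside. The offset of 1 was added and log2 taken; no further scaling was applied. Of 68842 clusters, 23456 had 1 symbol, 495 several and 44891 none in the platform annotation, with symbols updated through RefSeq. A gene is shown by its cluster with the highest mean.

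The main test was limma 3.58.1 in R 4.3.3 (lmFit, eBayes, two-sided), with day as a factor beside rotenone, and Benjamini-Hochberg adjustment over all clusters. Single days, and the F test of a difference among days, came from a model of 6 group means over all arrays. Small steady means past 0.05 over all livers, under 1 in size, past 0.05 on no day and one direction on all days. Scripts were tested on simulated data. Array number limits the precision, and p-values measure the spread between these animals.

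Members and lists were chosen with earlier results of these data known. Named genes were the 16 small steady rises and falls of smallest adjusted p, the 5 largest rises and falls without overlap, up to 2 rises and 2 falls per list with those past on no day first, the reference genes, and the 4 rises and 4 falls of at least 0.5 most even over the days. Some genes that this rule takes are not reported here. The 74 lists held 1753 genes, of which 1651 were measured. Alternatives were other scalings, offsets, filters, priors, array weights, replicate blocks, the methods' analysis of variance, and leaving out each array and each day. Same-numbered livers of a day correlated between -0.11 and 0.17 in their deviations, so the numbers were not taken as pairs.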

Additional observations from a re-analysis of the deposited data

Results flagged for a closer look

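Single livers stood far from the other 3 of their group in 9 of 282 groups tested (47 genes), and chance alone gives about 1 in 20. In rotenone livers of day 3, C8h11orf52 had a lowest value of 9.04, Odad4 a highest of 6.12, Smpd4 a highest of 8.03, Rpl13a a highest of 11.65, Ppia a highest of 16.45 and Cyp2c6v1 a highest of 19.32. In rotenone livers of day 1, Cers3 had a lowest value of 4.87 and Rplp0 a highest of 13.95. In control livers of day 14, Cyp2c6v1 had a lowest value of 18.82.

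For 7 named genes the rotenone effect differed among the days by limma's F test. The adjusted p was 0.00434 for Pmvk, 0.00773 for Mki67, 0.00809 for Rrm2, 0.0102 for Hbb-b1, 0.0141 for Serpina7, 0.0248 for Nr1d1 and 0.0285 for Uqcrb. The average over all livers describes these genes less well than their daily values.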

How the results depend on the processing

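Leaving out a whole day lowered the counts. Clusters past the threshold over all livers numbered 8070, and 5226 without day 1, 4471 without day 3 and 4886 without day 14, where fewer arrays were fitted. Small steady clusters numbered 3550, and 2399 without day 1, 1640 without day 3 and 1710 without day 14. Of these, 1099, 772 and 842 were among the 3550, so membership changed much. With single days tested at 0.1 the small steady clusters numbered 2110. A test of only the clusters with 1 symbol gave 1156, of which 555 were among the 3550. The threshold of the methods' analysis of variance left 1127 clusters, and 646 with its ratio of 1.8. Clusters past the threshold on a single day numbered 6139 in all, and 3194 when each day was fitted on its own arrays. With days fitted in that way the small steady clusters numbered 5299, with 2591 rises and 2708 falls. The effect differed among days in 412 clusters, and in 857 when only clusters at or above the median mean were tested. Leaving out 1 array at a time gave 6651 to 8208 clusters over all livers, 2544 to 4000 small steady clusters (lowest without control day 14 replicate 4), 5149 to 6955 on a single day and 220 to 844 that differed among days (lowest without rotenone day 14 replicate 4, highest without rotenone day 14 replicate 1). With a replicate block the counts were 6990 and 2993 for 12 same-day pairs and 7564 and 3176 for the replicate number beside day, over all livers and small steady. Above the median negative control, an alternative chosen after seeing the data, they were 9371 and 2971. Rises were 49.7% of the clusters past the threshold with the deposited values, 56.0% after quantile normalization and 62.4% after centring. No named gene reversed its direction where it passed the threshold in the main fit or in the alternative. A change of sign in genes that passed in neither was not counted. Of 286 named genes, 150 kept their side of the threshold in all 38 alternatives. Levels near the negative controls and near the top of the scale limit what could be measured.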
